A study of Homo sapiens with 9 samples.

Results

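Low-methylation sites are CCCGGG positions of the human genome at which a small but measurable share of DNA copies carried a methylated cytosine. They were chosen by their measured methylation, as the sites of chromosomes 1 to 22 with a value in all 9 libraries and a mean over those libraries from 5% to under 20%. This gave 3168 of 58310 autosomal sites with complete values (5.43%). The level of these sites is therefore a description of the choice and not a result. The mean gave each group equal weight, and no difference between groups entered it. A site can therefore lie in the class while the mean of a single group lies outside 5 to 20%.

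The assay was DREAM (digital restriction enzyme analysis of methylation), and the cells were HEK293T, an established line from human embryonic kidney with the T antigen of SV40. All cells received a pIRES expression plasmid with Lipofectamine 2000, a lipid reagent for transient transfection, and DNA was isolated 4 days later. The plasmid was empty, or expressed TET1-ALT or TET1-FL, and each of these 3 groups held 3 libraries. Nothing in the labels says whether the numbered libraries came from separate cultures, so their spread may be technical, and the share of cells that took up a plasmid is not given in the sources used here.

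In DREAM the enzyme SmaI first cuts unmethylated CCCGGG. XmaI, added next, opens the methylated copies and gives them fragment ends of another kind. A value is the percentage of reads with the methylated end, so 10% can mean a minority of cells, of alleles or of copies, which this assay cannot tell apart. TET1 is a dioxygenase that oxidises 5-methylcytosine to 5-hydroxymethylcytosine and further forms, a route to loss of methylation. Full-length TET1 carries a CXXC domain that binds CpG-rich DNA with little methylation, while the alternative isoform starts further into the protein and lacks that domain. In most cell types CpG islands at promoters are nearly free of methylation, the rest of the genome is heavily methylated, and intermediate levels are found at island edges, enhancers and some silenced or imprinted regions.

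Gene names could be given only where a RefSeq promoter window (250 bases before to 50 bases after a gene start, GRCh38.p14) held at least 3 CCCGGG sites, alone or joined with an overlapping window, and the spacing of those sites matched the listed hg19 positions at exactly 1 place on the same chromosome. CCCGGG reads the same on both strands, and 7115 of 33725 autosomal windows (21.1%) hold it. Of 380 such sequences, 377 matched once, and a search on wrong chromosomes gave a single match in 51 of 7980 tries (0.639%). These promoters are rich in CCCGGG by construction and do not represent all low-methylation sites. They held 726 sites with complete values, of which 595 lay under 5%, 17 at 5 to 20%, 53 at 20 to 80% and 61 at 80% or more. The 17 sites fell into 13 sequences.

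Sequences of 7 of these promoters are shown because low-methylation sites lie in them, in most within the same window as sites of other levels. Each is the RefSeq GRCh38.p14 sequence, 5′ to 3′ on the gene's strand, from 250 bases before the gene start and ending at the start or 30 bases after it, in lower case with each CCCGGG in capitals. The regions are chr7:45921273-45921522 (minus strand) for IGFBP3, chr19:10432185-10432464 (plus) for PDE4A, chr1:44406542-44406821 (plus) for RNF220, chr5:1886916-1887195 (minus) for IRX4, chr1:6419890-6420169 (minus) for HES2, chr15:64911652-64911901 (plus) for ANKDD1A and chr18:78979568-78979817 (plus) for SALL3.
IGFBP3: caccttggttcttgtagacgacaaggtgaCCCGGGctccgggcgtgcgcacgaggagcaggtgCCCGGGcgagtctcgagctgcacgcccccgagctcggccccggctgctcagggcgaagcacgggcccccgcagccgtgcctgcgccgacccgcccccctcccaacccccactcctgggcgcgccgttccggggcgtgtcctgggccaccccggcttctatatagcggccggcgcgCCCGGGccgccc
PDE4A: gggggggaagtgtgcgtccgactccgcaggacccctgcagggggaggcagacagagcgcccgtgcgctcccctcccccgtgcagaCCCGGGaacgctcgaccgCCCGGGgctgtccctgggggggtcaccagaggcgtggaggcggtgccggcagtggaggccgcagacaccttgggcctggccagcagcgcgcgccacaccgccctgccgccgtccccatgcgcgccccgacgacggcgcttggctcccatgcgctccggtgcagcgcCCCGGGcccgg
RNF220: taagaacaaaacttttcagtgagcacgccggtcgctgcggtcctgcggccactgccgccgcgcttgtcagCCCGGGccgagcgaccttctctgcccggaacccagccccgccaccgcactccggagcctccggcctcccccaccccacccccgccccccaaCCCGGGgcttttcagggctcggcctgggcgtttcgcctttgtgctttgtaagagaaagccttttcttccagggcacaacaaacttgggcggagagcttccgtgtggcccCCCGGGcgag
IRX4: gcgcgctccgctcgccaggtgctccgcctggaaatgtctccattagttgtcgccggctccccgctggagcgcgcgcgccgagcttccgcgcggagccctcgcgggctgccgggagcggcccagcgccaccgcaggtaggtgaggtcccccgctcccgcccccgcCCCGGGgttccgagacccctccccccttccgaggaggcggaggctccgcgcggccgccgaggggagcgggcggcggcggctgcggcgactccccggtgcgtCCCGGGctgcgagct
HES2: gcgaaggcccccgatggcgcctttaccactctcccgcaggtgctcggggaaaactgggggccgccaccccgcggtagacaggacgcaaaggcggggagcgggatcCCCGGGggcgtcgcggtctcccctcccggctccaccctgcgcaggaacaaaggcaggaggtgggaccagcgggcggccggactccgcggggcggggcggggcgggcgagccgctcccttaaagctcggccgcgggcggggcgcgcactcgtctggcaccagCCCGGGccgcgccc
ANKDD1A: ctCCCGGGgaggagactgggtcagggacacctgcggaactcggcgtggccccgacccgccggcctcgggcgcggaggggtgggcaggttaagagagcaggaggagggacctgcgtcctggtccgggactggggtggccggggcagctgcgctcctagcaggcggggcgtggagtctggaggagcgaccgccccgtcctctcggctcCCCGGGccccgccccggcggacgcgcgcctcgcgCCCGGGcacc
SALL3: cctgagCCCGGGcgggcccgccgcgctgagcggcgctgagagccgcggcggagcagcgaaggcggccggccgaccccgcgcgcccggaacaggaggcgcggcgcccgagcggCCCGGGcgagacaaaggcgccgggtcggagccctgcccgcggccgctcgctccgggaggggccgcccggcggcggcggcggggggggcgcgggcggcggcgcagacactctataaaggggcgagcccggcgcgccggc

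In IGFBP3, which encodes a binding protein of insulin-like growth factors, methylation was higher with distance from the gene start. The site nearest the start, 12 bases before it (hg19 position 45960881 on chromosome 7), averaged 1.18% over the 9 libraries. The low-methylation site 187 bases before the start (45961056) had 18.67, 21.1 and 15.67% for the empty vector, 20.68, 17.3 and 21.39% for TET1-ALT and 18.08, 14.17 and 20.97% for TET1-FL. The groups overlapped throughout at this site. A further 34 bases out, 221 bases before the start, the mean was 29.4%, so 3 levels stood within 1 promoter window.

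In PDE4A, which encodes a phosphodiesterase of cyclic AMP, the low-methylation site lay on the other side. Both sites before the start (165 and 147 bases) averaged 0.260% and 0.313%. The site 19 bases after the start (10543133 on chromosome 19) had 15.37, 19.18 and 11.72% for the empty vector, 16.35, 14.0 and 17.38% for TET1-ALT and 14.01, 14.33 and 8.13% for TET1-FL. Its values overlapped between groups, with a TET1-FL minus empty vector difference of -3.27 percentage points (limma adjusted p = 0.658). RNF220, which encodes a ubiquitin ligase, had the same layout, with means of 0.456% and 0.628% at 180 and 89 bases before the start and 9.36% at 20 bases after it (44872487 on chromosome 1). The 9 libraries of that site lay between 8.23% and 12.06%.

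The transcription factor genes IRX4, HES2 and SALL3 each had at least 1 low-methylation site. In IRX4, of the Iroquois homeobox family, the site 15 bases after the start (1887042 on chromosome 5) had 14.74, 22.6 and 20.23% for the empty vector, 13.44, 13.34 and 14.56% for TET1-ALT and 17.77, 25.2 and 15.89% for TET1-FL. The TET1-ALT libraries lay below the empty vector libraries there, with a difference of -5.41 percentage points and a limma adjusted p of 0.743. The TET1-FL libraries overlapped those of the empty vector and lay above those of TET1-ALT, by a difference of 5.84 points (limma adjusted p = 0.906). The site 86 bases before the same start averaged 2.71%. In HES2, of the hairy and enhancer of split family, the site 145 bases before the start averaged 15.0% and the sites 16 and 27 bases after it averaged 18.05% and 23.3%, so none of the 3 averaged under 5%. In SALL3, of the spalt family, the site 244 bases before the start (76739577 on chromosome 18) had 7.9, 20.63 and 33.01% for the empty vector, 17.54, 15.63 and 23.74% for TET1-ALT and 17.45, 19.29 and 24.8% for TET1-FL. Its empty vector libraries spanned all the others, and a site 106 bases nearer the start averaged 4.02%.

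ANKDD1A, which encodes a protein with ankyrin repeats and a death domain, had 2 sites just above the lower bound, 248 and 44 bases before the start, at 5.07% and 5.16%. The other promoters with low-methylation sites belonged to WNT9B, which encodes a Wnt ligand (12.8%), SLC7A10, an amino acid transporter (19.15%), ZNF44, a zinc finger protein (12.9% and 10.1% around a site of 46.8%), RIPPLY2, a transcriptional repressor that acts in somite patterning and shares its start with the read-through RIPPLY2-CYB5R4 (9.62% and 16.2%), TSPAN11, a tetraspanin that shares its site with LOC124902911 (6.31%), and LOC101928796 (6.80%, beside sites of 47.0% and 82.1%). The WNT9B site ranged from 1.88% in TET1-ALT replicate 2 to 24.07% in TET1-FL replicate 3, a wider range than that of the sites in RIPPLY2, RNF220 or TSPAN11.

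None of the 17 promoter sites had separate libraries between TET1-FL and the empty vector, where separate means that all 3 libraries of 1 group lay beyond all 3 of the other, as at 14.9% (lower) and 2.13% (higher) of all 59751 sites with complete values. The difference was negative at 8 of 17, from -3.27 to 3.64 percentage points, with limma adjusted p from 0.556 to 1. For TET1-ALT against the empty vector it was negative at 9 of 17, from -5.41 to 2.38 points, and 1 site, that of IRX4, had separate lower libraries, beside 10.1% of all sites. For TET1-FL against TET1-ALT the IRX4 site had separate higher libraries, beside 1.94% of all sites, and the site of TSPAN11 and LOC124902911 separate lower ones (-1.74 points), beside 7.36%. Sites that neighbour each other can be the 2 ends of the same sequenced fragments, so they are not independent measurements.

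**Figure D1:**
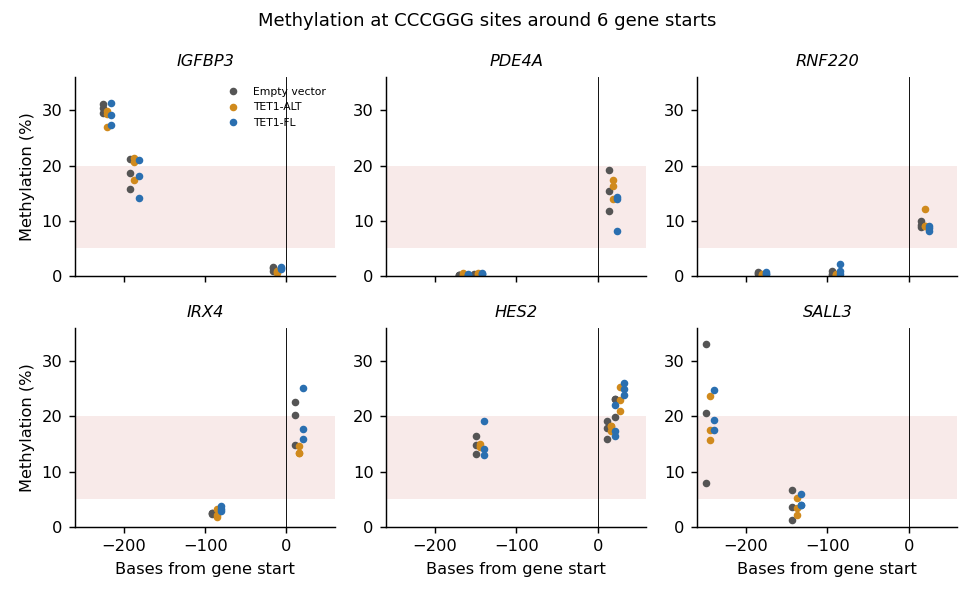
Methylation (percent, vertical axis) of each CCCGGG site with complete values against its distance from the gene start (bases, horizontal axis; 0 is the start) in 6 promoters, 1 point per library and the groups moved apart by 5 bases. The pink band marks 5 to 20%; in IGFBP3, PDE4A, RNF220 and IRX4 the sites in the band lie within the same window as sites under 5%.

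Over all sites the low-methylation class lay in the sparse part of the distribution between the unmethylated and the methylated peak. Of the autosomal sites with complete values, 22479 averaged under 5%, 14232 from 20 to 80% and 18431 at 80% or more. Within the class 617 sites averaged 5 to 7%, 722 sites 7 to 10%, 977 sites 10 to 15% and 852 sites 15 to 20%, with a median of 11.0%. The site just inside the lower bound, at 90091993 on chromosome 14, averaged 5.001%, and the nearest one outside, at 85203933 on chromosome 16, averaged 4.99%. At the upper bound the SALL3 site was the last one inside with 19.999%, and the first outside, at 2349346 on chromosome 1, averaged 20.0%.

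**Figure D2:**
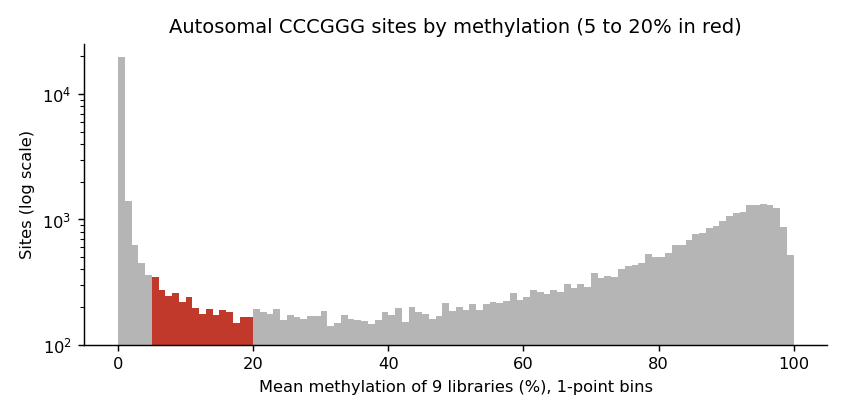
Number of autosomal CCCGGG sites (vertical axis, log scale from 100) in each 1-point bin of mean methylation over the 9 libraries (percent, horizontal axis). The red bins are the 3168 sites of 5 to 20%, between the peak of sites under 5% and the broad peak of 80% or more.

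The spread between replicate libraries was wide next to the level. The standard deviation within groups had a median of 1.64 percentage points over the 3168 sites, from 0.825 at the tenth percentile to 3.51 at the ninetieth. Sites under 5% had a median of 0.106 points and sites of 20 to 80% of 2.87 points. All 9 libraries lay within 5 to 20% at 1815 sites (57.3%), while 745 sites had at least 1 library under 5%, 628 sites at least 1 library at 20% or more, and 20 sites both. The class is therefore less sharp at its bounds than its rule, which uses the mean.

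The widest spreads came with 1 or 2 high libraries each. The site at 1966800 on chromosome 5 had 32.75% in empty vector replicate 3 but 5.45% and 3.01% in replicates 1 and 2, and between 7.39% and 17.75% in the 6 TET1 libraries. At 2878409 on chromosome 1 the outlying value was 35.36% in TET1-FL replicate 3, with the other 8 libraries from 4.63% to 13.48%. At 29302695 on chromosome 12 it was 42.27% in empty vector replicate 2, with the others from 11.59% to 22.06%. The fourth, at 71166210 on chromosome 2, had 2 high libraries, empty vector replicate 3 at 37.24% and TET1-FL replicate 2 at 31.05%. Empty vector replicate 3 held an outlying value at 2 of these 4 sites. Leaving out a single library turned the TET1-FL minus empty vector difference at each of the 4, from -3.44 to 6.07 points on chromosome 5, from 4.74 to -4.70 on chromosome 1, from -6.00 to 3.15 on chromosome 12 and from -5.58 to 1.02 on chromosome 2. The steadiest sites were at 13014558 on chromosome 6, from 4.54% to 5.65%, and at 137258558 on chromosome 9, with a within-group standard deviation of 0.283 points each. The second of these had 9.29, 9.41 and 9.7% for the empty vector, 8.44, 8.61 and 8.04% for TET1-ALT and 8.17, 7.9 and 7.51% for TET1-FL, so both TET1 groups lay below the empty vector without overlap, with differences of -1.10 and -1.61 points. Neither difference passed limma (adjusted p = 0.697 and 0.405).

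Low-methylation sites were less crowded than unmethylated ones. At least 3 other listed CCCGGG sites lay within 1000 bases of 32.9% of them, against 59.3% of sites under 5%, 28.3% of sites of 20 to 80% and 28.6% of sites of 80% or more. Within the class this share hardly moved with level, from 31.9% at 10 to 15% to 34.7% at 15 to 20%. By chromosome the class made up from 3.82% of complete sites on chromosome 6 to 7.31% on chromosome 8.

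Their neighbours were mixed. A site with complete values lay within 1000 bases of 2731 low-methylation sites (86.2%). The nearest one averaged under 5% for 913 of them (33.4%), 5 to 20% for 590 (21.6%), 20 to 80% for 968 (35.4%) and 80% or more for 260 (9.52%). For sites under 5% the nearest site was under 5% in 92.4% of cases, and for sites of 20 to 80% it was at 20% or more in 51.3% (20 to 80%) and 33.4% (80% or more). Low-methylation sites thus had both unmethylated and methylated nearest sites, a description that was not tested. The difference in level did not vanish at short range: at 1 to 100 bases (195 sites) the nearest site differed by a median of 10.8 percentage points, from there to 300 bases (1313 sites) by 11.2 and beyond that to 1000 bases (1223 sites) by 13.8.

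**Figure D3:**
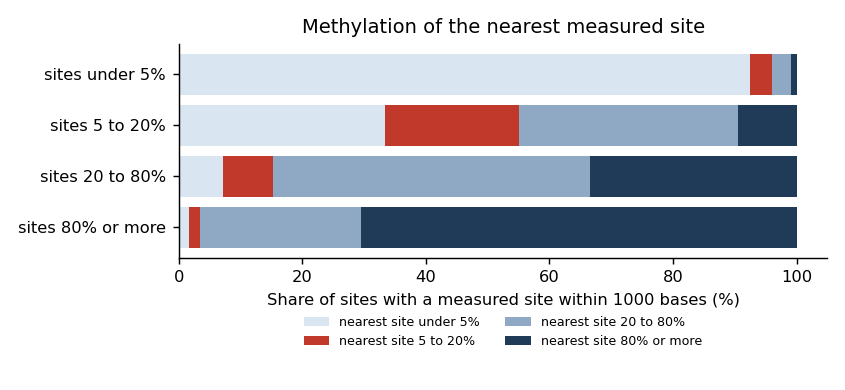
Share of sites (percent, horizontal axis) whose nearest site with complete values within 1000 bases falls in each methylation class, with 1 bar for each class of the site itself. The bar of 5 to 20% divides into 33.4% nearest sites under 5%, 21.6% at 5 to 20%, 35.4% at 20 to 80% and 9.52% at 80% or more.

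By the neighbours on both sides, 198 low-methylation sites (6.25%) stood at a border, with a site under 5% on 1 side and a site of 20% or more on the other. The same arrangement was found at 3.31% of sites under 5% and 2.54% of sites of 20 to 80%. A further 789 (24.9%) had only sites under 5% beside them, 1074 (33.9%) only sites of 20% or more, 670 (21.1%) another low-methylation site and 437 (13.8%) no measured site within 1000 bases. These shares describe the listed enzyme sites and not the CpGs between them.

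Most low-methylation sites had no other one within 1000 bases, in a class of 5.43% of complete autosomal sites. Where a measured site lay that near, the nearest was a low-methylation site for 21.6% of them. The same share was 3.54% for sites under 5%, 8.0% for sites of 20 to 80% and 1.74% for sites of 80% or more. When neighbouring ones at most 1000 bases apart were joined, 2378 remained single, 319 pairs formed, 32 runs held 3 sites, 9 held 4 and 4 held 5. The 5 sites on chromosome 11 from 100998500 to 100999692 were all the measured sites of that stretch, with means of 5.86% to 13.4%. The run averaged 9.72% ± 0.229 for the empty vector, 9.83% ± 0.144 for TET1-ALT and 9.97% ± 0.261 for TET1-FL (SD, n = 3 each), and the groups overlapped. On chromosome 19 from 53606246 to 53606982 the 5 sites were again all that were measured, and the run averaged 10.9% ± 1.08 for the empty vector, 9.51% ± 0.305 for TET1-ALT and 10.5% ± 0.379 for TET1-FL. The TET1-ALT and TET1-FL libraries did not overlap in that run, while both overlapped the empty vector.

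The other runs of 5 sites lay among 7 measured sites each. On chromosome 1 from 2365324 to 2366816 the means were 10.8% ± 0.320, 10.3% ± 0.430 and 10.2% ± 0.230 (empty vector, TET1-ALT, TET1-FL; SD, n = 3 each). Without scaling of libraries, the run average of TET1-FL was lower without overlap with the empty vector. Its sites did not move 1 way: TET1-FL had the lower mean at 3 and the higher mean at 2. At 2365324 its libraries lay above those of the empty vector without overlap (1.26 points). On chromosome 6 from 152128806 to 152130289, which tied with the runs above in size, the means were 12.7% ± 0.810, 11.7% ± 0.782 and 10.3% ± 1.79, and TET1-FL replicate 2 at 12.4% reached into the empty vector range while replicates 1 and 3 were at 9.29% and 9.28%. Differences between runs were not tested.

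The first comparison asked how methylation differed with full-length TET1. Averaged over the 3168 sites, the empty vector libraries had 11.95, 12.03 and 11.76% (11.9% ± 0.141, SD, n = 3) and the TET1-FL libraries 11.16, 11.10 and 11.18% (11.1% ± 0.0402, SD, n = 3). All TET1-FL libraries lay below all empty vector libraries, with a difference of -0.769 percentage points between the means and from -0.931 to -0.580 between single libraries, a direction that turned to 0.178 when a constant was added to each library to equalise its sites of 80% or more. Multiplying each library to the same end gave -0.650 points. The difference came to -6.46% of the empty vector level. No p is given for a mean over sites chosen with the results known.

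Spiked-in standards, DNA of defined methylation added to every sample, were taken to be the entries of the table that lie on no human chromosome, since the labels do not name them. Among these, the entry of lowest methylation, with 2 sites, was picked by its name in the table after its level was seen. It read 7.1, 7.305 and 6.72% in the empty vector libraries, 6.86, 6.475 and 6.42% in the TET1-ALT libraries and 6.545, 6.245 and 7.165% in the TET1-FL libraries. TET1-FL minus empty vector was -0.39 points there (-5.54% of the empty vector level), with pairwise differences from -1.06 to 0.445, so the groups overlapped. TET1-ALT minus empty vector was -0.457 points (-6.49%), from -0.885 to 0.14. Relative to the empty vector, the standard thus read -5.54% in TET1-FL and -6.49% in TET1-ALT, where the low-methylation sites read -6.46% and -1.98%. The 18 sites of all such entries did not move 1 way: TET1-FL was lower at 10 and higher at 8, from -7.11% to 5.19% of the empty vector level, and TET1-ALT was lower at 10 and higher at 8, from -6.86% to 6.03%. The directions were less mixed at low levels. The lowest entry and the entries Luc306 and Kan190 had 6.95 to 30.45% in the empty vector. All their sites were lower in both TET1 groups, from -7.11% to -1.92% for TET1-FL and from -6.86% to -0.515% for TET1-ALT. Every site that was higher in a TET1 group had 37.8% or more in the empty vector. Some of these entries may not be standards of a defined level, since the sites of the entry Sla374 averaged 88.2, 54.3 and 37.8% in the empty vector. The standards also served the authors' correction for enzyme efficiency, and their part in the result was not tested.

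**Figure D4:**
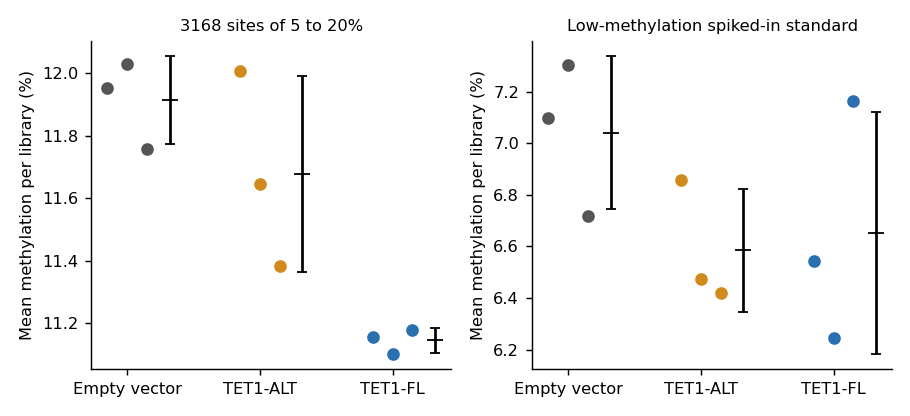
Mean methylation (percent, vertical axis, not starting at 0) of each library over the 3168 sites (left) and over the 2 sites of the low-methylation standard (right); bars give the group mean ± SD of 3 libraries. On the left the TET1-FL points lie below all empty vector points without scaling of libraries (the order of the means turns with an added constant); on the right the groups overlap.

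The difference was spread over sites of the class. TET1-FL had the lower mean at 2159 of 3168 sites (68.2%), beside 66.4% of all 59751 sites with complete values, and the median difference was -0.75 points. With an added constant the share was 44.4%. In the limma fit over all 59751 sites, 0 were called at an adjusted p under 0.05 (percent called 0), and so 0 low-methylation sites. The smallest adjusted p among the 3168 was 0.287. An unadjusted p under 0.05 was reached by 263 lower (8.3%, beside 9.72% of all sites) and 57 higher (1.8%, beside 1.11%). All 3 TET1-FL libraries were under all 3 of the empty vector at 418 sites (13.2%, beside 14.9%) and above them at 82 (2.59%, beside 2.13%). The shares of lower sites were near the background of all sites, which pools classes that differ. TET1-FL had the lower mean at 55.9% of autosomal sites under 5%, 76.4% of those of 20 to 80% and 71.5% of those of 80% or more. The low-methylation share of 68.2% lay above the first and below both of the others. Separate lower libraries were found at 14.2%, 17.3% and 14.6% of these classes, each above the 13.2% of low-methylation sites.

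Across the range of the class the difference in points was larger at higher levels. It was -0.437 points at 5 to 7%, -0.685 at 7 to 10%, -0.698 at 10 to 15% and -1.16 at 15 to 20%, which is -7.11, -7.81, -5.53 and -6.48% of the empty vector mean. Without scaling of libraries, in each of these ranges every TET1-FL library was under every empty vector library. For comparison, the difference was -0.0727 points (-13.1%) at autosomal sites under 5%, -1.88 points (-3.32%) in the range of 20 to 80% and -0.948 points (-1.04%) at 80% or more. As a share of the level the low-methylation sites thus stood between the unmethylated and the methylated classes. The share at sites under 5% is taken of an empty vector mean of only 0.554%, near the floor. The median site difference there was -0.0133 points. The difference between classes was not tested.

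By surroundings, and again without scaling, TET1-FL was lower without overlap of libraries in each of the 5 kinds of neighbourhood. Sites with no measured neighbour had -1.08 points, sites with only neighbours of 20% or more -0.854, border sites -0.840, sites with only neighbours under 5% -0.686 and sites beside another low-methylation site -0.510. Border sites had the lower mean in TET1-FL at 153 of 198 (77.3%), beside 63.9 to 69.8% in the other 4 kinds and 66.4% of all sites, and separate lower libraries at 19.2%, beside 11.5 to 14.9% in the other kinds and 14.9% of all sites. The difference between kinds was not tested. With 0 to 2, 3 to 5 and 6 or more listed sites within 1000 bases the difference was -0.743, -0.875 and -0.617 points, with no steady order. On chromosomes it was negative on 22 of 22, from -1.14 points on chromosome 18 (50 sites) to -0.148 on chromosome 13 (67 sites), and libraries were apart on 20, all but chromosomes 3 and 13.

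By spread, the mean difference was -0.671 points in the 1056 sites with the lowest within-group standard deviation, -0.692 in the middle 1056 and -0.946 in the most variable 1056. These sets also differed in level, with empty vector means of 9.97, 12.3 and 13.5%. As a share of that level the differences were -6.72, -5.62 and -7.03%, with no steady order. Separate sites whose group means were 5 points or more apart numbered 39 lower (1.23%, beside 2.48% of all sites) and 24 higher (0.758%, beside 0.41%). On data simulated for this comparison over 59751 sites, limma called 2% of 50 sites shifted by -4 points, and 24%, 62% and 76% of those shifted by -8, -12 and -16. Smaller shifts were not simulated. The simulated noise was normal with each site's own standard deviation, the other sites had no difference, and values were kept from turning negative. A shift of a whole library and outlying single libraries were not simulated, so the shares need not hold in the measured data. The shifted sites were drawn only from the upper part of the 15 to 20% range. The median within-group standard deviation was 2.06 points in that range and 1.21 at 5 to 7%, so these shares need not hold lower in the class.

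**Figure D5:**
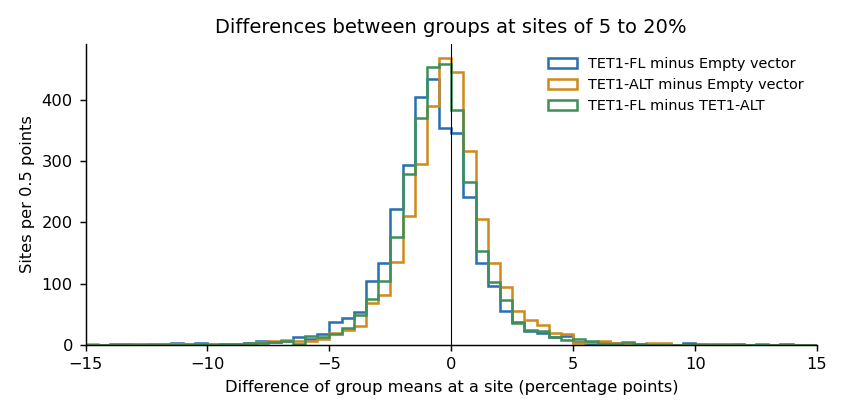
Number of low-methylation sites (vertical axis) per 0.5-point bin of the difference of group means at a site (percentage points, horizontal axis), 1 line per comparison. The TET1-FL minus empty vector line has its bulk below 0, with 68.2% of the 3168 sites lower, a balance that turns with an added constant (44.4%).

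Among the named sites the lowest limma adjusted p was at 139539577 on chromosome 9. It had 23.75, 23.92 and 27.41% for the empty vector, 21.54, 22.68 and 18.63% for TET1-ALT and 13.29, 11.55 and 13.52% for TET1-FL. The TET1-FL libraries lay clear of the other 6, and TET1-FL minus empty vector was -12.2 points (SE 1.46, limma adjusted p = 0.287). Its nearest measured site averaged 80.4%.

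The most negative separate difference was at 88600283 on chromosome 16, where the empty vector libraries had 33.15, 27.22 and 20.75%, the TET1-ALT libraries 17.84, 15.95 and 9.42% and the TET1-FL libraries 14.74, 16.43 and 9.26% (TET1-FL minus empty vector -13.6 points, limma adjusted p = 0.392). Both TET1 groups lay below the empty vector there and overlapped each other. At 33687700 on chromosome 15 the empty vector had 22.37, 27.98 and 24.65% and TET1-FL 9.24, 12.42 and 14.73%, with TET1-ALT at 16.67, 17.8 and 13.81% and its mean between theirs (-12.9 points). At 17330398 on chromosome 16 the empty vector values were 26.66, 14.67 and 32.35% and the TET1-FL values 10.17, 12.32 and 10.88% (-13.4 points). That difference leaned on the spread of the empty vector, from -18.4 points without its replicate 2 to -9.54 without its replicate 3.

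The other lower sites kept to the rule were at 70597019 on chromosome 2 (-11.5 points) and at 126259839 on chromosome 3 (-11.2 points). In the first, TET1-FL replicate 3 at 6.19% stood below replicates 1 and 2 at 14.81% and 15.69%. In the second, empty vector replicate 2 at 29.83% stood above replicates 1 and 3 at 21.69% and 15.93%, and the difference without it was -7.56 points. Both differences rest on libraries that vary by more than 8 points within a group. At all 6 lower sites named for this comparison the empty vector mean lay above the upper bound of 20%, from 22.5% to 27.0%. These sites entered the class only because TET1 libraries were lower, and how far the choice enlarged the differences was not tested.

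The 4 sites that the rule named for higher TET1-FL values follow. At 976997 on chromosome 9 the empty vector had 10.61, 7.43 and 6.37%, TET1-ALT 21.78, 18.11 and 10.28% and TET1-FL 17.26, 23.79 and 24.95% (13.9 points, limma adjusted p = 0.381). At 9957513 on chromosome 3 the empty vector had 3.1, 4.71 and 4.19% and TET1-FL 10.86, 16.76 and 18.36% (11.3 points), while TET1-ALT, with 2.89, 10.46 and 10.47%, lay below TET1-FL and overlapped the empty vector. At 178017099 on chromosome 5 the empty vector had 4.35, 7.95 and 12.35%, TET1-ALT 12.53, 14.4 and 17.37% and TET1-FL 22.99, 17.56 and 19.93% (11.9 points). The groups stood in the order empty vector, TET1-ALT, TET1-FL by their means at each of these sites. At 48650809 on chromosome 8 the empty vector libraries were not alike, with 0.73, 11.52 and 0.99%, against 12.44, 18.48 and 18.28% in TET1-FL (12.0 points). Of these 4 sites, those on chromosomes 3 and 5 had another low-methylation site as their nearest neighbour, and those on chromosomes 8 and 9 a site of 21.9% and 79.5%. The empty vector mean lay under the lower bound of 5% on chromosomes 3 (4.00%) and 8 (4.41%). It lay inside the class on chromosomes 5 (8.22%) and 9 (8.14%).

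The second comparison set TET1-ALT against the same empty vector libraries, so the comparisons are not independent of each other. The TET1-ALT libraries averaged 12.01, 11.65 and 11.38% over the 3168 sites (11.7% ± 0.314, SD, n = 3). The difference from the empty vector was -0.236 points (-1.98%), from -0.648 to 0.251 between single libraries, so the groups overlapped, and with an added constant it was 0.0295. TET1-ALT replicate 1 lay inside the empty vector range and replicates 2 and 3 below it. The difference was -0.401 points without TET1-ALT replicate 1 and -0.0877 without replicate 3.

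TET1-ALT had the lower mean at 1776 low-methylation sites (56.1%, beside 56.3% of all sites). Its libraries lay below those of the empty vector at 192 sites (6.06%, beside 10.1%) and above them at 139 (4.39%, beside 3.14%). By class, the separate lower share was 14.7% at autosomal sites under 5%, 7.76% at 20 to 80% and 7.17% at 80% or more. In limma 0 of 59751 sites were called (percent called 0), with a smallest adjusted p of 0.652 among low-methylation sites. An unadjusted p under 0.05 was reached by 119 lower (3.76%, beside 5.49%) and 90 higher (2.84%, beside 1.73%). Without TET1-ALT replicate 3 these counts were 73 (2.30%, beside 3.05% of all sites) and 95 (3.00%, beside 1.94%), so the balance turned among low-methylation sites and not among all sites. Separate sites 5 points or more apart were 22 in each direction (0.694%), beside 1.02% lower and 0.539% higher of all sites. The groups overlapped in each of the ranges of level, with -0.205, -0.255, -0.123 and -0.371 points from 5 to 7% up to 15 to 20%. On chromosomes the difference was negative on 20 of 22 and libraries were apart on 1, chromosome 20 (-0.520 points). Beside these, the autosomal sites under 5% differed by -0.0494 points, sites of 20 to 80% by -0.643 and sites of 80% or more by -0.267.

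Among single sites the most negative TET1-ALT difference was at 56619311 on chromosome 20. The empty vector had 37.37, 25.44 and 22.37%, TET1-ALT 17.6, 12.33 and 11.41% and TET1-FL 12.61, 22.8 and 16.68% (TET1-ALT minus empty vector -14.6 points, limma adjusted p = 0.673). Next came the site at 88600283 on chromosome 16 given above (-12.6 points). At 133926783 on chromosome 10 the empty vector had 15.14, 9.49 and 21.68% and TET1-ALT 1.46, 4.53 and 6.73% (-11.2 points). Empty vector libraries differed among themselves by over 10 points at all 3 sites. Their mean lay above the upper bound of the class on chromosomes 20 (28.4%) and 16 (27.0%), and inside it on chromosome 10 (15.4%). On chromosome 10 the TET1-ALT mean, 4.24%, lay under the lower bound.

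Higher values in TET1-ALT were found at 150949694 on chromosome 7, where the empty vector had 15.88, 14.03 and 4.84% and TET1-ALT 29.65, 21.01 and 18.44% (11.5 points). The TET1-FL libraries there, at 24.05, 22.02 and 19.9%, also lay above the empty vector. At 30411704 on chromosome 9 the empty vector was steady at 6.62, 7.72 and 7.81% and TET1-ALT had 15.49, 12.29 and 26.23% (10.6 points, and 6.51 without TET1-ALT replicate 3). At 49794215 on chromosome 13 the empty vector had 8.29, 18.61 and 12.97% and TET1-ALT 21.23, 20.55 and 24.15% (8.69 points). The limma adjusted p was 0.673 at all 3 sites.

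The third comparison set the TET1 forms against each other, with the same libraries as above. TET1-FL minus TET1-ALT was -0.534 points over the 3168 sites (-4.57% of the TET1-ALT level), from -0.909 to -0.205 between single libraries, so the groups did not overlap, and with an added constant it was 0.149. On the low-methylation standard the same difference was 0.0667 points, from -0.615 to 0.745. TET1-FL had the lower mean at 2059 sites (65%, beside 60.4% of all sites). Its libraries lay below those of TET1-ALT at 295 sites (9.31%, beside 7.36%) and above them at 77 (2.43%, beside 1.94%). The shares over all sites include the many sites under 5%, where TET1-FL had the lower mean at 48.9% and separate lower libraries at 2.37%. At autosomal sites of 20 to 80% these shares were 69.7% and 11.3%, and at 80% or more 66.6% and 10.0%. The low-methylation sites lay below both of these classes.

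In limma 0 of 59751 sites were called for this comparison (percent called 0), with a smallest adjusted p of 0.831 among low-methylation sites. An unadjusted p under 0.05 was reached by 172 lower (5.43%, beside 4.46%) and 37 higher (1.17%, beside 1.1%). The difference was negative on 22 of 22 chromosomes, with libraries apart on 15. Separate sites 5 points or more apart were 33 lower (1.04%, beside 1.35% of all sites) and 15 higher (0.473%, beside 0.321%).

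Of the 6 sites named for this comparison, the one with the smallest spread between replicates was at 124462055 on chromosome 9. TET1-ALT had 16.14, 18.59 and 17.79% and TET1-FL 11.73, 6.1 and 8.55%, with the empty vector at 15.71, 20.99 and 16.21% (TET1-FL minus TET1-ALT -8.71 points, limma adjusted p = 0.831). The empty vector and TET1-ALT overlapped there, and TET1-FL lay below both. At 46846113 on chromosome 21 TET1-ALT had 10.11, 14.9 and 18.82% and TET1-FL 5.59, 7.34 and 3.29% (-9.20 points). At 2197748 on chromosome 8 TET1-ALT had 22.55, 12.21 and 12.65% and TET1-FL 1.72, 4.54 and 10.84% (-10.1 points, and -6.73 without TET1-ALT replicate 1).

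In the opposite direction, the site at 33356706 on chromosome 1 had 8.45, 12.71 and 17.55% in TET1-ALT and 27.02, 23.66 and 25.88% in TET1-FL, with 13.34, 18.78 and 12.59% in the empty vector (12.6 points, limma adjusted p = 0.831). TET1-FL lay above both other groups there, with a mean of 25.5% that was above the upper bound of the class. At 23555061 on chromosome 2 TET1-ALT had 8.85, 1.15 and 8.82% and TET1-FL 16.54, 9.69 and 15.85% (7.75 points), and the empty vector, at 10.4, 12.41 and 23.31%, overlapped TET1-FL. The site at 9957513 on chromosome 3 given above followed with 7.39 points. Without TET1-ALT replicate 1 this last difference was 4.86 points.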

How the data were processed

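DREAM was run on 9 libraries. Per the labels, the authors took the share of methylated reads per CCCGGG site, corrected it with spiked-in standards, and required at least 20 reads. The deposited values are percent, and per the submitters' processing notes the build is hg19. The aligner is not given in the sources used here. The depth behind each value is unknown, so no interval that needs it is given. The table lists 382289 sites, 75645 with a value in at least 1 library and 59751 in all 9.

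limma 3.58.1 (R 4.3.3) was fitted on percentages to all 9 libraries and 59751 sites, with trend and robust moderation and Benjamini-Hochberg adjustment, and was tested on simulated data. A read-count model was planned for a table of counts and could not be used. Libraries were called separate where all 3 of 1 group lay beyond all 3 of the other. The sites, lists and tests were chosen with earlier results of these data known.

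Named sites were, among separate ones and at most 1 per 1000 bases, the 6 most negative and 4 most positive (TET1-FL minus empty vector) or 3 each way (other comparisons), the nearest to each bound, the runs with most members, and the 4 largest and 2 smallest standard deviations. The promoter genes and the fourth run of 5 sites were added after values were seen. No coordinate was converted between builds. Alternatives covered left-out libraries, other choices of sites, scaling, a log scale, a replicate block and other limma settings.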

Additional observations from a re-analysis of the deposited data

How the results depend on the processing

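Of 60 alternative values of the mean differences and the shares of lower sites, 54 kept direction, and the 6 that turned were those with an added constant. At the named sites, alternatives left out single libraries or multiplied them. Of 144 differences, the 46 with separate libraries kept direction under each, which leaving out a library cannot change, and 49 of the 98 with overlapping libraries turned under at least 1 (81 of 686 values). Adding 1 constant to each library to equalise sites of 80% or more turned the mean difference to 0.178 points (TET1-FL minus empty vector), 0.0295 (TET1-ALT minus empty vector) and 0.149 (TET1-FL minus TET1-ALT), and the share of sites with a lower mean to 44.4%, 48.4% and 45.0%. It also gave 91 called low-methylation sites for TET1-FL against the empty vector (2.87%), 25 lower and 66 higher, beside 18037 of all 59751 sites (30.2%), 529 lower and 17508 higher. The other alternatives called 0 low-methylation sites. By its construction this constant also moves sites near 0. Multiplying each library gave -0.650 points and 65.0% lower for TET1-FL against the empty vector. Leaving out single libraries gave mean differences from -0.847 to -0.711, from -0.401 to -0.0877 and from -0.682 to -0.369 points, lower shares from 65.4 to 69.1%, from 52.6 to 60.5% and from 58.8 to 66.5%, and 244 to 335, 168 to 226 and 172 to 232 sites at an unadjusted p under 0.05, in the order of the comparisons above. With a replicate block limma called 0 sites in each comparison, and 300, 184 and 209 low-methylation sites (9.47, 5.81 and 6.60%) had an unadjusted p under 0.05, beside 9.57, 6.33 and 5.39% of all sites. Same-numbered libraries deviated from their group means with correlations of -0.0151 to 0.0200 across sites, and differently numbered ones with -0.0258 to 0.0356. Such correlations cannot see a shift shared by all sites of a library, so they do not settle whether the numbers pair the samples. Unknown read depth limits what single sites can show.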
